A study of Mus musculus with 3 samples.

Results

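Transcription factor genes known from hair follicle stem cells and skin epithelium, 10 in all, were followed across 3 sorted populations of mouse back-skin epidermis: Sox9, Lhx2, Tbx1, Nfatc1, Tcf7l1, Tcf7l2, Barx2, Gata3, Mitf and Trp63. They form a list of gene names, and all 10 were found among the 49120 gene symbols of the files. All 10 also passed the filter on low values, a mean of at least 1 scaled FPKM, which 11575 genes passed. The cells came from wild-type C57BL/6 mice aged 7 weeks, with back skin in the second telogen, the resting phase of the hair cycle. The epidermis was freed from the dermis with the protease thermolysin (0.25 mg per ml for 1 h), the same for all groups. Flow cytometry on the surface proteins CD34 and Itga6 gave the groups. S, the suprabasal bulge stem cells, were CD34-positive with low surface Itga6; B, the basal bulge stem cells, were CD34-positive with high surface Itga6; N, the non-stem cells of the labels, were CD34-negative. The bulge is the niche of resting stem cells in the follicle, and N holds whatever else the epidermal preparation contained. Each population's RNA was a pool from 4 mice, so there was 1 library per group and no replicate error.

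Levels are scaled FPKM: the fragments of a gene, relative to the length of its transcript and to the depth of the library, divided further by a factor per library. Being per length, levels can be set side by side between genes, though preamplification of the RNA can distort such comparisons. A call, higher or lower, needed a 2-fold difference (1 on the log2 scale) between values of scaled FPKM + 1. The added 1 understates the difference of low genes. Fold values in the text are plain ratios of scaled FPKM. Intervals are 95% exact counting intervals on approximate fragment numbers, and they leave out amplification and mouse-to-mouse differences. The depth, fitted to low values taken as FPKM, was 31.25 M fragments for S, 32.6 M for B and 35.35 M for N. In bulk RNA, fewer cells of a type and less RNA per cell cannot be told apart.

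The sort and the bulge label were looked at first. Cd34, the antigen of the sort, was at 215 in S, 144 in B and 0.201 in N. Of 9 bulge marker genes, 8 were higher in S than in N and 7 higher in B than in N, with 0 lower in either. Among all genes tested, 9.56% were higher in S than in N and 7.27% in B than in N. Cd34 is itself among the 9, and its part in these counts was set by the sort. Krt15, the classical bulge keratin, was at 3641 in S, 1855 in B and 1014 in N. Between the layers, 0 of the 9 were higher in S than in B and 3 were lower, beside 3.89% and 5.93% of all genes tested. The 3, named after their values were seen, were Ccn2 (18.6 in S, 147 in B), Dkk3 (11.1 and 39.3) and Sfrp1 (32.8 and 112). The bulge markers thus did not all run highest in S. The basal-layer keratin gene Krt14 was at 12.7 in S, 277 in B and 588 in N, while Krt5, which encodes its pairing partner, was at 959 in S, 810.3 in B and 818 in N.

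As background, the members encode DNA-binding proteins with different known roles, not all of them in the bulge. Sox9 and Lhx2 maintain the identity of the stem cells, and Tbx1 supports their self-renewal. Nfatc1, which calcineurin moves to the nucleus, holds the cells in rest. Tcf7l1 (also called Tcf3) and Tcf7l2 (Tcf4) bind DNA as partners of beta-catenin and repress or activate Wnt target genes. Barx2 is a homeodomain factor expressed in follicles, Gata3 a zinc finger factor of the inner root sheath and of epidermal differentiation, Mitf the master factor of melanocytes, and Trp63 (p63) the factor that all stratified epithelia depend on.

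The windows before the start sites are shown for 3 members that were higher in both bulge populations, and for Gata3, which was lower in both, so that the promoters of the opposite patterns can be read side by side. Start sites are those of RefSeq (GRCm38.p6, the assembly behind mm10), and the table held 11 start sites for 6 of the 10 members (Gata3, Lhx2, Tcf7l1, Mitf, Tbx1 and Tcf7l2). Sox9, Nfatc1, Barx2 and Trp63 were not matched. Each sequence is the 250 bases before a start, 5′ to 3′ on the gene's strand. Lhx2 is shown at chr2:38339031-38339280 (plus strand), Tcf7l2 at chr19:55741560-55741809 (plus strand) and Gata3 at chr2:9878601-9878850 (minus strand). Mitf is shown at its most upstream start, chr6:97806808-97807057, and at the most downstream, chr6:97991533-97991782 (plus strand), the start that melanocytes are known to use. Capitals mark matches, on either strand, to 6 short motifs that the members or their relatives are known to bind.
Lhx2: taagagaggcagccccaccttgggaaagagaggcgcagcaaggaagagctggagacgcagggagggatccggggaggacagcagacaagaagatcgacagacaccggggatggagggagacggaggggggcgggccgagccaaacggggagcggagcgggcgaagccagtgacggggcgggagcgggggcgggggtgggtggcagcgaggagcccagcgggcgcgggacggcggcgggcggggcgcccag
Tcf7l2: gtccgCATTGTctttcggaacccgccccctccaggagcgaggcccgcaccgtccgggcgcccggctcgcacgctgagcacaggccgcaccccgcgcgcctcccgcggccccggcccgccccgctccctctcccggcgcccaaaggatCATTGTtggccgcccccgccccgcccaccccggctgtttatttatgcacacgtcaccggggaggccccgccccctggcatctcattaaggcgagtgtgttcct
Mitf, upstream start: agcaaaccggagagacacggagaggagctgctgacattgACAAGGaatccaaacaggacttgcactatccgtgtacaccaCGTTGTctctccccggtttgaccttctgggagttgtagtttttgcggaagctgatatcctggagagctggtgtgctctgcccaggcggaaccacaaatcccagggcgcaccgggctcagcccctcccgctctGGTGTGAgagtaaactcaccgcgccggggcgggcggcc
Mitf, downstream start: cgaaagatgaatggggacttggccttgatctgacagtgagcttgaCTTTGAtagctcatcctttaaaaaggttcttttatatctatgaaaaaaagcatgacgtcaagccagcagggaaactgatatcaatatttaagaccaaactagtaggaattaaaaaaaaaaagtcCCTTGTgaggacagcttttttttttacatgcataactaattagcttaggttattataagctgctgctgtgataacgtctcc
Gata3: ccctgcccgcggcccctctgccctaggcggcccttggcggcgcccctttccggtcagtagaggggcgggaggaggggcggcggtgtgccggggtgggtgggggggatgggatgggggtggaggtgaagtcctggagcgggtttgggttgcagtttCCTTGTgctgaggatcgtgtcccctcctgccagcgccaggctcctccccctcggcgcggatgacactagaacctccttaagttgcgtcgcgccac

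A match is a description of the sequence only. The Sox motif was searched as ACAANG, and 36.3% of all 32851 windows of the same length held it. The Tcf/Lef motif was searched as CTTTGA, which can overlap the Sox motif and was in 13.8% of windows. The T-box motif, searched as GGTGTGA, was in 3.33% of them. The other 3 were the GATA motif (AGATAA, in 9.99%), the E-box (CANNTG, in 66.2%) and the NFAT motif (GGAAAA, in 20.4%). The Lhx2 window shown, at the more upstream of 2 start sites, held no match to any of the 6, and the window of the other Lhx2 start held 1 NFAT match. The Tcf7l2 window held 2 Sox matches and the Gata3 window 1. The upstream Mitf window held 2 Sox matches and 1 T-box match, and the downstream Mitf window 1 Tcf/Lef and 1 Sox match. The base composition of the windows differed: G and C made up 72.8% of the Lhx2 and Tcf7l2 windows, 70% of the Gata3 window, 59.6% of the upstream Mitf window and 36% of the downstream one, against a median of 52.4% over all windows. The files give 1 value per gene, so which start was used in these cells was not measured.

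Against N, 7 of the 10 factors were higher in S (Lhx2, Tbx1, Mitf, Nfatc1, Tcf7l2, Sox9 and Barx2) and 1, Gata3, was lower. In B, 7 were also higher than in N, with Tcf7l1 (log2 ratio 1.26, against 0.72 in S) among them and Barx2 (0.17, against 1.11 in S) not, and Gata3 was again lower. Trp63 passed no call. Because the list was chosen with earlier results known, its counts are a description and no independent evidence. Among all genes tested, 9.56% were higher and 10.9% lower in S than in N, and 7.27% were higher and 7.1% lower in B than in N. With the values as deposited these shares were 7.39% and 14.5% in S, and 6.19% and 9.46% in B. The members' median log2 ratio was 2.33 in S against N and 1.56 in B against N, beside medians of 0.02 and -0.04 over all genes tested. Both comparisons use the same N library, so they are not independent. Between the bulge layers, 2 members were higher in S than in B and 0 lower, beside 3.89% and 5.93% of all genes tested.

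The summed level of the 10 genes was 305 in S, 251 in B and 201 in N. Trp63, the most abundant, made up 35.1% of that sum in S, 50.3% in B and 68.7% in N. The other 9 summed to 198 in S, 125 in B and 62.9 in N, with a median level of 23.2 in S, 13.2 in B and 3.81 in N. The bulge libraries thus held more of these transcripts in sum, and a larger part of it came from genes other than Trp63.

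**Figure D1:**
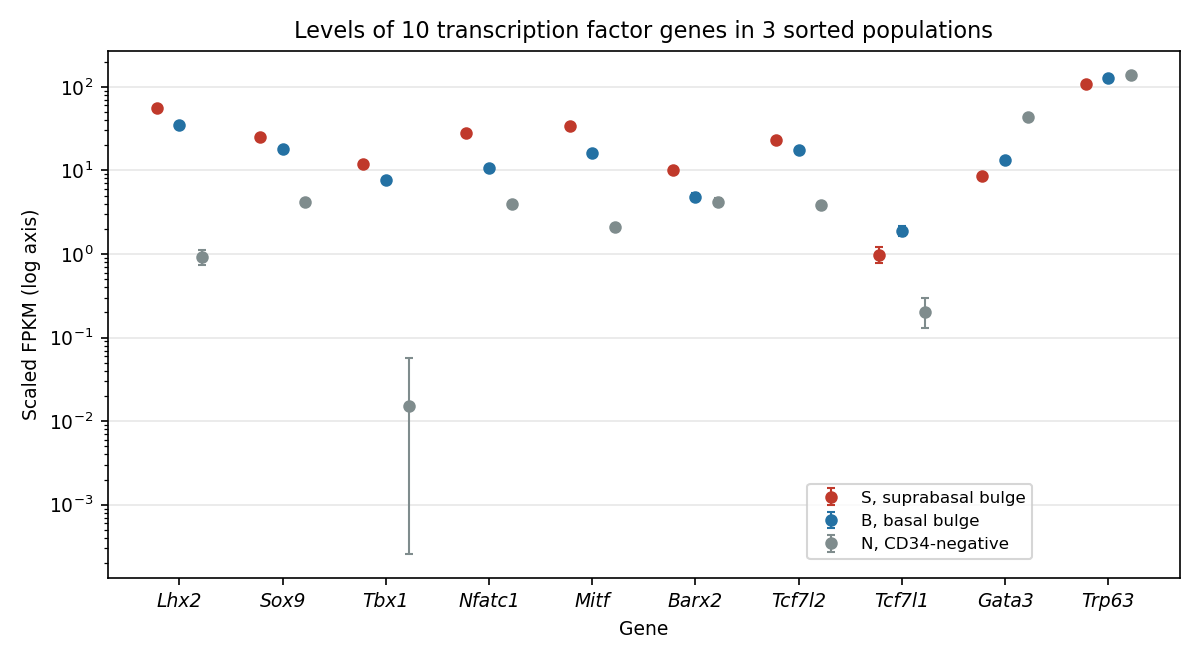
Scaled FPKM (log axis) of the 10 genes in S, B and N, 1 library each. Bars are 95% counting intervals and are mostly smaller than the points. S is highest and N lowest in 7 genes, though B and N of Barx2 overlap within counting error; Gata3 runs the other way, Tcf7l1 is highest in B, and Trp63 is nearly level, with an order of B and N that depends on the scaling.

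Lhx2, a LIM-homeodomain factor (chromosome 2, 38339281 to 38369733, mm10, ENSMUSG00000000247), was at 56.1 in S, 35.0 in B and 0.911 in N. It was near the bottom of the N library and among the most abundant genes of both bulge libraries, with rank 533 in S, 819 in B and 10687 in N among the 11575 genes. The S level was 61.6-fold that of N (interval 50.5 to 75.7), and the B level 38.5-fold (31.5 to 47.4). There were 21 genes that had a larger log2 ratio in S against N.

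Sox9, an HMG-box factor (chromosome 11, 112782224 to 112787760, ENSMUSG00000000567), was at 25.2 in S, 17.98 in B and 4.24 in N. Its N level rests on about 685 fragments, against about 101 for Lhx2, so the N library held more Sox9 than Lhx2. The S level was 5.95-fold that of N (5.47 to 6.47) and the B level 4.24-fold (3.89 to 4.62).

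Tbx1, a T-box factor (chromosome 16, 18581713 to 18586969, ENSMUSG00000009097), was at 12.02 in S, 7.71 in B and 0.0152 in N. The N value rests on about 1 fragment, so the ratio is poorly bounded: 793-fold in S with an interval of 211 to 46545, and 509-fold in B with an interval of 135 to 29887. With the pseudocount the log2 ratios were 3.68 in S and 3.10 in B. Tbx1 was thus the member with the lowest level in N.

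Nfatc1, the calcineurin-dependent factor (chromosome 18, 80606205 to 80713071, ENSMUSG00000033016), was at 27.7 in S, 10.5 in B and 3.95 in N. The 3 levels were stepped, with S 7.00-fold above N (6.47 to 7.59), S 2.62-fold above B (2.48 to 2.78) and B 2.67-fold above N (2.44 to 2.91). About 3830 fragments in S, 1618 in B and 740 in N stand behind these values. The log2 ratio of B against N was 1.22. With a pseudocount of 5 it was 0.80, which is under the call.

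Tcf7l2 (chromosome 19, 55741810 to 55933654, ENSMUSG00000024985) was at 23.2 in S, 17.4 in B and 3.81 in N, 6.09-fold in S (5.55 to 6.69) and 4.56-fold in B (4.15 to 5.02) over N. Its paralog Tcf7l1 (chromosome 6, 72626378 to 72789254, ENSMUSG00000055799) was far lower, at 0.977 in S, 1.88 in B and 0.204 in N. Tcf7l2 was 23.7 times the level of Tcf7l1 in S, 9.25 times in B and 18.7 times in N. Tcf7l1 was highest in B, at 9.21-fold the N level (6.06 to 14.9) and 1.92-fold the S level (1.48 to 2.51). These values rest on about 86 fragments in S, 183 in B and 24 in N, and its mean of 1.02 lies just above the filter; with the values as deposited the mean is under it. The coding transcripts of the 2 paralogs share at most 23 bases in 1 run, shorter than the reads of 75 bp. For the other members the longest such run with a relative was 17 to 44 bases.

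Barx2, a Bar-class homeodomain factor (chromosome 9, 31846044 to 31913462, ENSMUSG00000032033), was at 10.1 in S, 4.81 in B and 4.15 in N. The S level stood apart, 2.43-fold over N (2.11 to 2.79) and 2.096-fold over B (1.82 to 2.42). B and N did not differ beyond counting error, with a ratio of 1.16 (0.984 to 1.36). With the values as deposited the log2 ratio of S against N was 0.88, so this call depends on the scaling.

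Mitf (chromosome 6, 97807052 to 98021349, ENSMUSG00000035158) was at 34.4 in S, 16.4 in B and 2.08 in N. These values rest on about 4844 fragments in S, 2553 in B and 397 in N, and Mitf was rank 920 in S and 8832 in N. The S level was 16.5-fold that of N (14.9 to 18.3) and 2.103-fold that of B (2.00 to 2.21), and the B level was 7.85-fold that of N (7.06 to 8.75). Melanocyte markers were near 0: of 9 markers 0 reached a mean of 1, and their summed level was 1.06 in S, 1.38 in B and 0.33 in N. The most abundant was Dct, an enzyme of melanin synthesis, at 0.475 in S and 0.513 in B and listed at 0 in N. Tyr, the rate-limiting enzyme of that synthesis, was at 0.118 in S, 0.127 in B and 0.250 in N, and Sox10, the factor that drives Mitf in melanocytes, was at most 0.117. Oca2 was listed at 0 in all 3 libraries.

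Of the wider list of 18 pigment cell genes, most of them known Mitf targets, 2 were measured and both were highest in N. Rab27a, which moves melanosomes, was at 1.66 in S, 2.54 in B and 10.9 in N. The receptor gene Met was at 2.68 in S, 9.19 in B and 12.7 in N. The other 16 were at most 1.18 in any library, a value of Gpnmb in S (Gpnmb was singled out with its values known). The measured relatives of Mitf were low, with no call in any comparison: Tfe3 was at 2.37 in S, 2.72 in B and 2.86 in N and Tfeb at 1.84 in S, 1.69 in B and 0.965 in N, both singled out in the same way.

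Gata3 (chromosome 2, 9857078 to 9890034, ENSMUSG00000015619) was the member lower in both bulge populations, at 8.51 in S, 13.2 in B and 43.6 in N. The S level was 0.195 of the N level (0.181 to 0.211) and the B level 0.302 of it (0.285 to 0.321). S and B were closer, at a ratio of 0.646 (0.591 to 0.706). Gata3 is also known from T cells, and 1 of 12 T cell markers passed the filter: Trbc2, a T cell receptor constant region gene, was at 4.01 in S, 19.8 in B and 33.03 in N. Trbc1, another such gene, was at 0.0973 in S, 0.421 in B and 1.92 in N. The summed level of the 12 markers was 6.07 in S, 22.3 in B and 38.0 in N, of which Trbc2 made up most in each library. Cd3d, Cd3g, Trac, Cd4 and Cd8a were each at most 0.482 in any library, Cd3e at most 1.18. The part of T cells in the Gata3 difference was not tested. Genes of the inner root sheath and hair, another site of Gata3, were near 0 but for 1: of 11 in the files, Hoxc13 (a homeobox gene of hair differentiation) alone passed the filter, at 6.00 in S, 4.30 in B and 0.138 in N. The 11 summed to 6.44 in S, 5.37 in B and 0.825 in N, and Krt71 and Tchh, markers of the sheath, were at most 0.406 in any library.

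**Figure D2:**
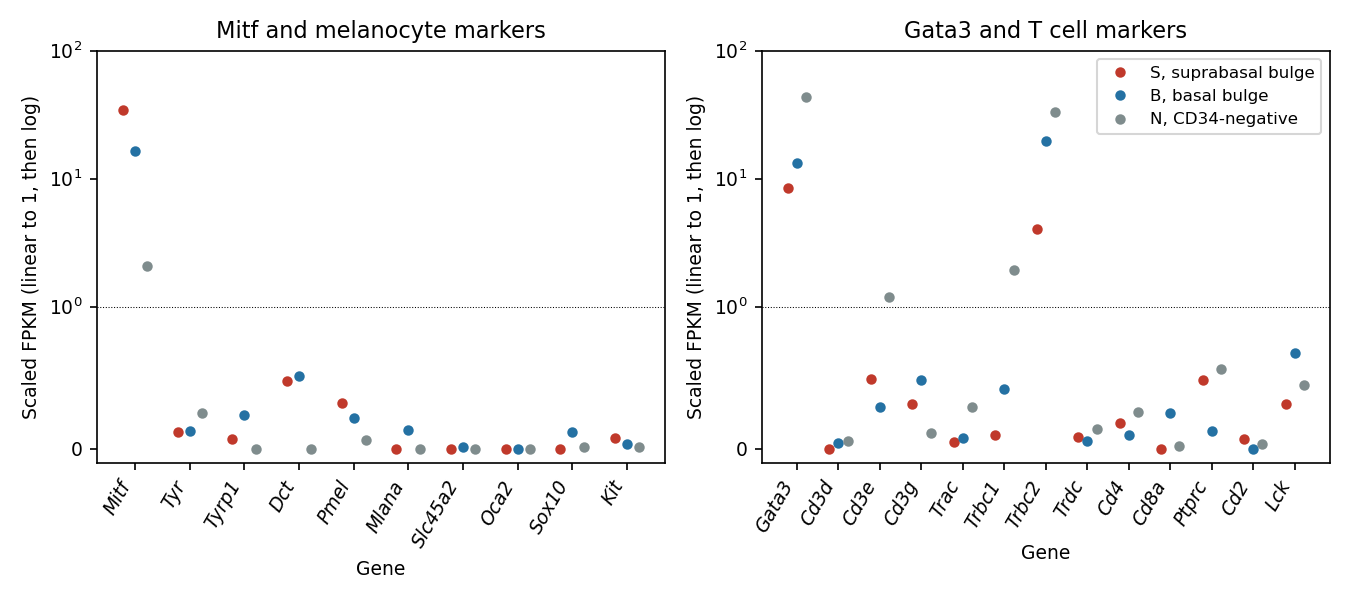
Scaled FPKM (linear to 1, then log) of Mitf beside 9 melanocyte markers, and of Gata3 beside 12 T cell markers, in S, B and N. All melanocyte markers lie under the dotted line at 1; among the T cell markers Trbc2 lies far above it in all 3 libraries.

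Trp63 (chromosome 16, 25683763 to 25892102, ENSMUSG00000022510) was the most abundant member in every library, at 107 in S, 126 in B and 138 in N. It did not differ 2-fold: the S level was 0.777 of the N level (0.762 to 0.792) and the B level 0.916 of it (0.900 to 0.932). Its rank among all genes tested was 306 in S, 250 in B and 273 in N. Rescaled to the same total of nuclear protein-coding genes it was at 108 in S, 132 in B and 130.2 in N, so the order of B and N depends on the scaling.

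Of 25 measured genes known as p63 targets in keratinocytes, 3 were higher and 6 lower in S than in N, and 0 were higher and 5 lower in B than in N, beside the 9.56%, 10.9%, 7.27% and 7.1% of all genes given above. With the values as deposited, 1 was higher and 8 lower in S, and 0 higher and 7 lower in B; on the same total of nuclear protein-coding genes, 3 were higher and 6 lower in S, and 1 higher and 3 lower in B. Their median log2 ratio was 0.03 in S and -0.04 in B, close to that of all genes, and its sign changed with the scaling. Itga3, an integrin chain of basal cells, was at 1.64 in S, 9.63 in B and 12.3 in N. Itga6, whose surface protein was gated in the sort, was at 33.1, 49.3 and 115 in S, B and N. It is among the genes counted as lower in S and in B, so these counts are not independent of the sort. Satb1, a chromatin organiser, was at 3.44 in S, 10.1 in B and 36.02 in N. Krt14 had the widest gap of the list in S against N, with a log2 ratio of -5.42. In B against N its log2 ratio was -1.09, less wide than that of Satb1 (-1.73) or Itga6 (-1.21).

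**Figure D3:**
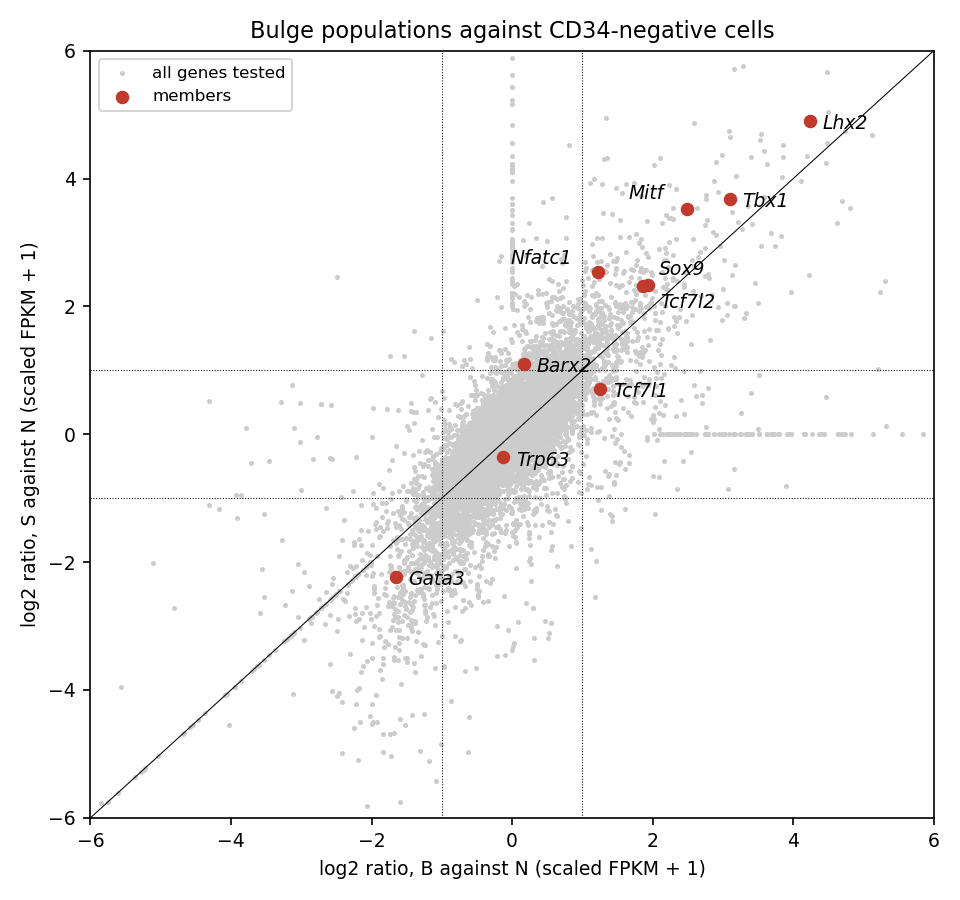
Log2 ratio of S against N over that of B against N for the 11575 genes tested (grey; 32 lie outside the axes, which end at 6) and the 10 members (red). Dotted lines mark the call at 1 in size and the diagonal equal ratios; 7 members lie beyond the call on the higher side of each axis, and Gata3 lies beyond it on the lower side of both. Both axes use the same N library.

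Between the bulge layers, Nfatc1 and Mitf were higher in S, with log2 ratios of 1.31 and 1.03 against B. Barx2 followed at 0.93, outside the middle 90% of all genes (-1.13 to 0.86) but short of the call. Lhx2 (0.66), Tbx1 (0.58), Sox9 (0.47) and Tcf7l2 (0.40) were all somewhat higher in S, and Trp63 (-0.24), Tcf7l1 (-0.54) and Gata3 (-0.58) somewhat higher in B. The median of the 10 was 0.52, beside 0.06 over all genes tested. The call of Mitf rests on the scaling: it was 0.94 with the values as deposited, 0.98 on the same total and 0.99 with factors from protein-coding genes.

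**Figure D4:**
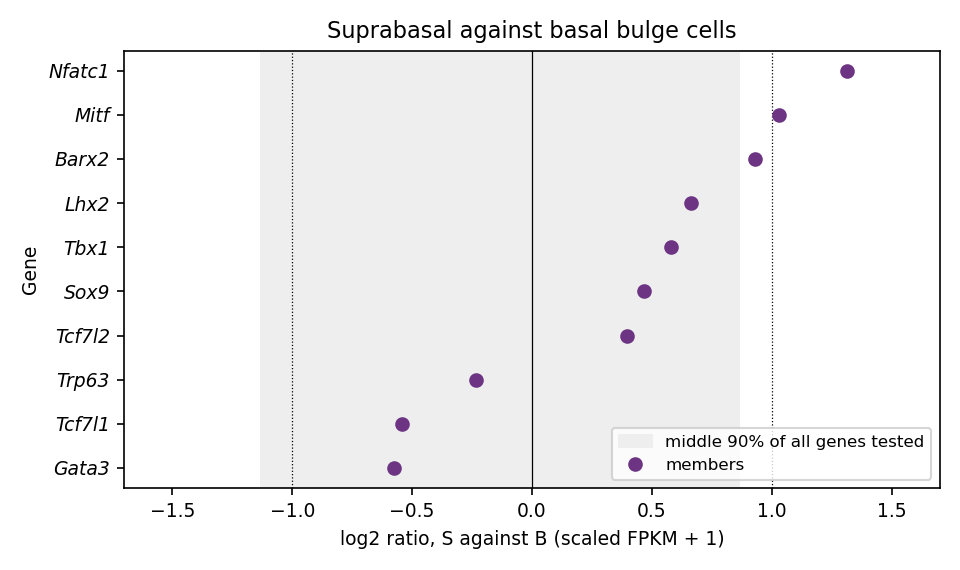
Log2 ratio of S against B for each member (points), sorted, over the middle 90% of all genes tested (grey band, -1.13 to 0.86). Dotted lines mark the call; Nfatc1 and Mitf lie beyond it, and 3 members lie on the side of B.

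The relatives of the members did not share one pattern. The counts of each family list stand beside the shares of all genes tested. These were 9.56% higher and 10.9% lower in S than in N, and 7.27% and 7.1% in B than in N. For S against B they were 3.89% and 5.93%. Several counts of these short lists are near those shares. Of the 5 other measured Sox genes, 4 were lower in S and 4 lower in B than in N, and 0 were higher, with a median log2 ratio of -1.80 in S and -1.25 in B. Sox6 was at 0.127 in S, 8.82 in B and 22.3 in N. Sox9 was the sole measured Sox gene that was higher in the bulge, under each of the 4 other scalings too.

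The LIM list also holds cofactor and Ssbp genes, and no LIM-homeodomain gene of it other than Lhx2 passed the filter. Among 6 other measured genes of this list, 3 were higher and 0 lower in S than in N, and 0 were higher and 1 lower in B. The LIM-only factor genes Lmo1 (10.2 in S, 6.26 in B, 2.99 in N) and Lmo4 (74.4, 43.8 and 33.2 in S, B and N) were higher in S, as was Ssbp3, a partner of the LIM cofactor Ldb1, at 20.7 in S, 14.1 in B and 7.14 in N. Ssbp2, of the same family, was at 43.3 in S, 34.7 in B and 67.7 in N. Of the T-box genes, Mga was the other measured one, at 24.4, 23.9 and 27.3 in S, B and N.

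The 9 other genes of the NFAT list held 1 higher and 0 lower in S against N and the same in B against N, beside those shares. Nfatc3 was at 17.7 in S, 16.2 in B and 24.0 in N, so the step of Nfatc1 was not shared by it. The calcineurin subunits Ppp3cb (17.2, 14.2 and 13.0 in S, B and N) and Ppp3r1 (20.7, 18.8 and 27.9 in S, B and N) were nearly level. Rcan1, an inhibitor of calcineurin that its activity induces, was at 23.2 in S, 9.81 in B and 14.9 in N.

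Of 13 other genes of the Tcf/Lef list, 2 were higher in S and 1 in B than in N, with 0 lower, again beside those shares. Ctnnb1 (beta-catenin) was at 188 in S, 101 in B and 66.5 in N, and the Groucho co-repressor Tle4 at 15.4, 7.57 and 6.83 in S, B and N. Tle3 was at 6.30 in S, 4.13 in B and 8.91 in N, and the co-repressor Ctbp1 at 11.6, 6.18 and 7.38 in S, B and N. Lef1, the activating member of the family, did not reach the filter and was at 0.230 in S, 2.097 in B and 0.0737 in N. Lef1 was singled out with its values known.

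Of 7 other homeobox genes, 3 were higher and 2 lower in S than in N, and 3 higher and 2 lower in B. Hopx, an atypical homeodomain protein known from bulge cells, was at 182 in S, 115 in B and 55.2 in N, and Cux1 at 4.68, 5.43 and 16.6 in S, B and N. Of the GATA list, Trps1, an atypical GATA protein and repressor known from follicle development, went against Gata3, at 8.87 in S, 6.14 in B and 0.951 in N. Of 7 other genes of the p53 list, 0 were higher in any comparison, while 1 was lower in S than in N and in S than in B. It was Trp73, a close relative of Trp63, at 0.111 in S, 1.56 in B and 1.602 in N, named after its values were seen. Of those without a call, Trp53 was at 16.6 in S, 16.7 in B and 23.2 in N, Mdm2 at 26.4, 17.5 and 29.3 in S, B and N, Mdm4 at 77.0, 47.7 and 44.7 in S, B and N, and Ppp1r13l at 9.32, 4.99 and 7.03 in S, B and N.

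**Figure D5:**
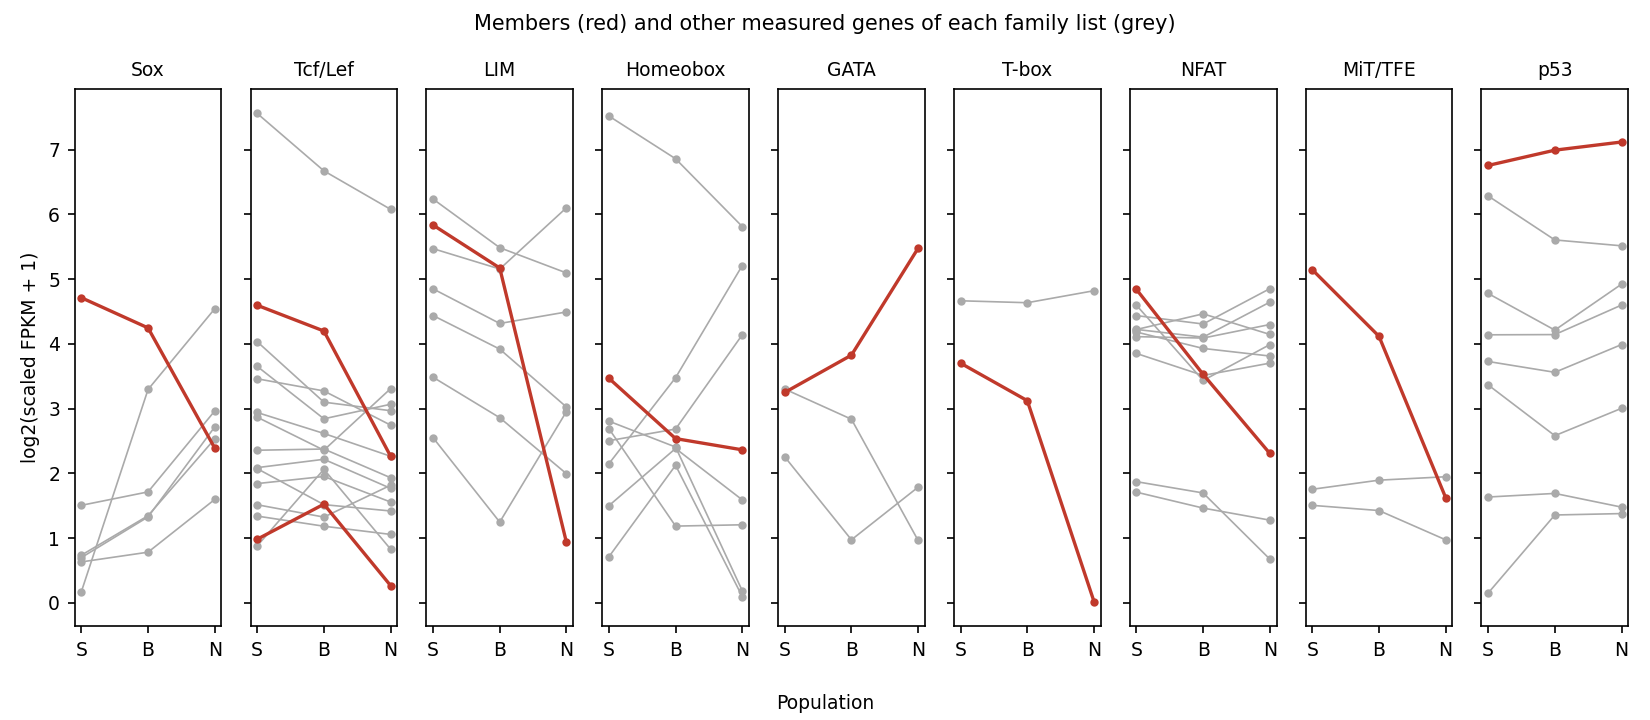
Log2(scaled FPKM + 1) in S, B and N of the members (red) and the other measured genes (grey) of 9 family lists. Sox9 falls from left to right while the 5 other Sox genes end higher in N, and Gata3 and Trps1 cross.

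The pattern of some members had close matches, and Sox9 and Tcf7l2 were near each other. Likeness was the distance between values of log2(scaled FPKM + 1) in the 3 populations, each gene centred on its mean, over 5375 protein-coding genes with a mean of at least 5. It rests on 3 libraries, so it is a coarse description. The added 1 narrows the differences of genes that are low in N, so near genes can differ in plain ratios. Trps1, at 0.951 in N, was 9.33-fold in S and 6.46-fold in B over N, against 5.95-fold and 4.24-fold for Sox9. The nearest to Sox9 were Trps1 (0.013), Tcf7l2 (0.060) and Id3 (0.086), and the nearest to Tcf7l2 were Trps1 (0.053), Sox9 (0.060) and Dmd (0.074). The nearest to Nfatc1 were Sgms2 (0.052), Foxc1 (0.061) and Bicd2 (0.087). Mitf was nearest to Actn1 (0.034), Aqp3 (0.101) and Plxna2 (0.145), and Barx2 to Tle4 (0.033), Lancl1 (0.037) and N4bp2l1 (0.044). Lhx2 had more distant neighbours, Mme (0.186), Ptn (0.307) and Sgcd (0.407), as had Tbx1, with Thsd1 (0.169), Mfge8 (0.196) and Fam171b (0.261). Gata3 was nearest to Rel (0.021), Hmgn1 (0.063) and Plk2 (0.084). For Trp63 the nearest were Bscl2 (0.011), Zpr1 (0.011) and Lrrc59 (0.015), but 876 genes lay within 0.25 of it, since a nearly level pattern is common. Barx2 had 102 genes within that distance, and the remaining members compared had 1 to 18.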

How the data were processed

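Per the labels' protocols, RNA pooled from 4 mice per population was preamplified (poly(T) and random primers); both ends of fragments were read for 75 bp. The authors deposited FPKM values per Ensembl gene. The B column is headed by the population's name, without a unit, and was taken as FPKM. In B, 97.0% of 235 low values of single-exon genes lay within 0.1 of a whole number of fragments. The shares were 97.1% of 210 in S and 95.7% of 186 in N, against 20% by chance at a fixed depth. The depth was fitted in each library, so such steps cannot tell FPKM from another unit per length. The submitters' processing notes list TopHat2 2.0.12, Cufflinks 2.1.1, DESeq2 and mm10 without saying what each did; the annotation was not given in the sources used here. Preamplification can distort levels between genes.

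Rows of 1 symbol were summed (of 49452 rows, 257 had no symbol). Library factors were medians of ratios over 18559 genes (0.923 for S, 0.981 for B, 1.10 for N). Fragments were approximated from deposited FPKM, the longest GENCODE M21 coding transcript and the depth; intervals are exact Poisson or Clopper-Pearson (scipy 1.17.1). With 1 library per group no test was run. The fold rule and depth estimate were tested on simulated data with counting error only. Such data hold no amplification or mouse-to-mouse differences, so they cannot show errors from these. Named genes are the members, up to 4 genes per list (14 lists) with the largest ratio at a mean of at least 5, the leading gene of each of 10 cell type lists, and 3 nearest patterns per member. Members and lists were chosen with earlier results of these data known. Alternatives were scaling, pseudocount, filter and fold. Some genes that this rule names are not reported here.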

Additional observations from a re-analysis of the deposited data

How the results depend on the processing

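No member's call changed direction under the 10 alternatives run. No paired analysis was possible because each group had 1 library. With the values as deposited, the median log2 ratio of the members was 2.11 for S against N; the median of all genes then moves by -0.20 in S against N and by -0.14 in B against N, and by 0.11 in B against N on the same total of nuclear protein-coding genes. With a pseudocount of 0.1 the members' median was 2.56 in S against N and 2.11 in B against N; with a pseudocount of 5 it was 1.69, 1.06 and, for S against B, 0.41. The 2 members higher in S than in B became 1 with the values as deposited and on the same total. They also became 1 with factors from protein-coding genes and with a pseudocount of 5. The count was 3 with a pseudocount of 0.1, where Barx2 was called (1.05), 4 at 1.5-fold and 0 at 3-fold. Counts of members higher or lower against N stayed within 1.5 times of those given. Upper quartile scaling and no filter changed no member's call. Tcf7l1, the lowest member, drops out with a mean of at least 5 and with the values as deposited; with a pseudocount of 0.1 it is called higher in S than in N (1.83), and with 5 it is not called in B (0.40). Depth limits Tbx1 and Tcf7l1 in N.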

Other observations

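Other transcription factor genes known from follicle stem cells and their progeny were more often higher than lower in the bulge libraries. Of 24 measured, 10 were higher and 4 lower in S than in N, and 9 higher and 1 lower in B than in N, beside 9.56% and 10.9% of all genes in S and 7.27% and 7.1% in B. With the values as deposited the counts were 8 and 5 in S, and 9 and 3 in B. Id2, an inhibitor of bHLH factors, was at 118 in S, 55.5 in B and 3.89 in N. The forkhead genes Foxc1 (18.7, 7.20 and 2.32 in S, B and N) and Foxp1 (64.2, 27.0 and 8.08 in S, B and N), both known to keep bulge cells in rest, had the stepped order of Nfatc1. Bnc2, a zinc finger gene, was at 31.1 in S, 28.5 in B and 3.71 in N. Between the layers, 5 of the 24 were higher in S and 2 in B, beside 3.89% and 5.93% of all genes.

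Of 17 measured factors of basal identity and differentiation, 2 were higher and 5 lower in S than in N, and 2 higher and 3 lower in B, beside the same shares of all genes. With the values as deposited, 2 were higher and 7 lower in S, and 2 higher and 5 lower in B. The zinc finger gene Bnc1 was at 6.91 in S, 8.57 in B and 1.75 in N, and Maf at 17.9, 13.7 and 5.09 in S, B and N. Tfap2b was at 34.1 in S, 31.1 in B and 17.4 in N, and Zfp750, a differentiation factor downstream of p63, at 7.41, 7.08 and 14.4 in S, B and N. Of 22 measured lysosome and autophagy genes known as MiT/TFE targets, 4 were higher and 1 lower in S than in N, and 2 higher and 0 lower in B, again beside those shares. Ctsa, which encodes cathepsin A, was at 30.6 in S, 23.8 in B and 16.0 in N. Ctsl, which encodes cathepsin L, was at 3.84 in S, 15.1 in B and 10.2 in N.

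The summed level of the remaining cell type lists was 2.58 in S, 2.24 in B and 0.581 in N for 9 fibroblast markers (led by Col1a2 at 1.34, 1.77 and 0.103 in S, B and N), and at most 0.932 in any library for endothelium (Egfl7), smooth muscle (Cnn1) and Merkel cells (Krt8). For 8 Schwann cell markers it was 8.62 in S, 7.84 in B and 15.1 in N, led by Erbb3 (5.80, 4.60 and 11.2 in S, B and N). For 12 Langerhans and myeloid markers it was 69.7 in S, 34.6 in B and 67.2 in N, led by Epcam (55.9, 21.7 and 24.6 in S, B and N), which follicle keratinocytes also express. Of the 6 measured, 1 (Epcam) was higher and 4 lower in S than in N, and 0 were higher and 4 lower in B. The 4 were the antigen presentation genes H2-Aa (4.51, 4.81 and 13.5 in S, B and N) and H2-Ab1 (2.54, 3.30 and 12.2 in S, B and N), and the signalling adaptor genes Tyrobp (0.928, 0.757 and 6.13 in S, B and N) and Fcer1g (0.527, 0.592 and 3.98 in S, B and N), all highest in N and named after their values were seen.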
